A study of Mus musculus and Homo sapiens with 12 samples.

Results

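Genes that license replication origins and build the replication fork were followed in liver tumours of 2 pancreatic ductal carcinoma models. The 47 members were chosen by name from what is known of their function, but with earlier results of these data known. Counts of calls among them are therefore a description of the set. All 47 were found in the tables of both models, which hold 23201 genes for the mouse model and 18190 for the human one. KPC LM2 is a derivative of the mouse pancreatic cancer line KPC after 2 generations of selection for liver metastasis, and KPC is the parental line. PANC1 LM3 is a derivative of PANC1, an established human pancreatic ductal carcinoma line, after 3 generations of selection, and PANC1 is the parental line. All 12 samples (3 biological replicates in each of 4 groups) carry the genotype label WT, were given as 500000 cells into the spleen on day 1 and were collected as liver tumours on day 21; the labels give no age, sex or strain of the hosts. Each derivative is a single selected line, so a difference between lines and a difference due to selection cannot be told apart. The titles name cells and the protocol names tumours, so the host cells a sample may hold are not settled by the labels.

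Before S phase, the origin recognition complex (ORC1 to ORC6) binds origins, and CDC6 and CDT1 load the ring-shaped MCM2 to MCM7 helicase onto DNA, a step called licensing. The kinase CDC7 with its partner DBF4, together with CDC45 and the GINS proteins, turns the loaded ring into the active CMG helicase, after which polymerases, clamp and ligase copy the DNA. Many of these genes are transcribed in late G1 and S phase under E2F factors, which makes them widely used readouts of proliferation in tumours.

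The files hold, for each gene, a mean normalised count over libraries (its level), a log2 fold change between the groups of a model with its standard error (SE), and a Wald test p adjusted over all genes tested. No value per library is in the columns used, so the spread between replicates is seen only through the listed SE, the depth of each library is unknown, and overlap of the groups cannot be read. Nothing in the headers tells whether the selected or the parental line was the numerator, so signs are kept as the files have them and are tied to no line. A gene is called when its adjusted p is under 0.05, and values after ± are the listed SE.

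Stretches of mouse promoters are shown for 3 genes of the licensing step, because their human counterparts are described in full for PANC1 and because their promoters hold E2F-like letters. They run from 170 to 21 bases before the annotated start, 5′ to 3′ on the strand of the gene. In RefSeq's GRCm38.p6 they lie at chr1:20820333-20820482 on the minus strand for Mcm3, at chr5:138171904-138172053 on the minus strand for the first of 2 promoters listed for Mcm7 and at chr11:98907981-98908130 on the plus strand for Cdc6. Capitals mark the letters TTGGCGC or TTCGCGC or TTCCCGC or TTGCCGC read on either strand, and matches on opposite strands may overlap.
Mcm3: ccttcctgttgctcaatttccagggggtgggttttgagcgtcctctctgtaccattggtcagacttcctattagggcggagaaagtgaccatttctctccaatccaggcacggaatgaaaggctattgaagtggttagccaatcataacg
Mcm7: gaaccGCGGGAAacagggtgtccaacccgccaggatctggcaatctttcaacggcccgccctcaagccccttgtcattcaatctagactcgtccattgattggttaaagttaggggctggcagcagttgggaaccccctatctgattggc
Cdc6: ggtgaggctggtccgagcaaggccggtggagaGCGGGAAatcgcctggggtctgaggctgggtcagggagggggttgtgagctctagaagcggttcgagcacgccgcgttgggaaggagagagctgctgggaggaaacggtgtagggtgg
The Mcm7 and Cdc6 stretches hold 1 such match each, and the Mcm3 stretch holds 0, since the 3 matches of its promoter lie outside these bases.

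In PANC1 LM3 and PANC1 tumours, the replication genes were mostly called on the same side of the comparison. In the authors' deposited table, 39 of 47 members were called negative, 3 were called positive and 5 were not called. Among all 17838 genes tested, 26.5% were called negative and 26% positive, 52.5% in all. For the 11301 genes at a level of at least 64, which every member passed, the shares were 36.5% and 32.7%. The median log2 fold change of the members was -0.65, against -0.03 for the genes at that level, from values in the authors' deposited table. Of the 47 members, 12 were called with a value beyond -1. Of all 17838 genes tested, 2759 were called beyond 1 in size, 52.6% of them positive. The values do not show whether the groups differed in the share of cells making these RNAs or in the amount per cell. Those cannot be told apart in bulk samples.

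The helicase itself was called in full. MCM2, MCM3, MCM4, MCM5, MCM6 and MCM7 form the ring that unwinds DNA, and all 6 were called negative in PANC1. Of all genes at a level of at least 64, 36.5% were called negative. In the authors' deposited table, MCM4 was at -1.91 ± 0.07 at a level of 1642, with an adjusted p of 1.99e-179 by the Wald test, a 3.75-fold difference. MCM3 followed at -1.48 ± 0.06 (adjusted p = 1.13e-116 by the Wald test) and MCM5 at -1.33 ± 0.07 (2.34e-73) in the authors' deposited table. The remaining subunits were smaller in size, with MCM2 at -0.96 ± 0.06 (9.66e-50), MCM7 at -0.85 ± 0.05 (2.57e-58) and MCM6 at -0.86 ± 0.08 in the authors' deposited table. Subunits of a ring that holds each of them once were listed with differences from 1.80-fold for MCM7 to 3.75-fold for MCM4.

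Origin recognition genes were split in PANC1, with 3 of 6 called negative (50%) and 2 of 6 positive (33.3%). The shares among all genes at a level of at least 64 were 36.5% and 32.7%. ORC1, an ATPase subunit whose protein level cycles in human cells, was listed at -1.34 ± 0.14, ORC6 at -0.85 ± 0.11 and ORC4 at -0.59 ± 0.09 in the authors' deposited table, all called negative. On the other side, ORC5 was at 0.68 ± 0.08 (adjusted p = 9.99e-17 by the Wald test) and ORC2 at 0.28 ± 0.07 (0.000161) in the authors' deposited table. ORC3 was not called and stood at -0.03 ± 0.08 in the authors' deposited table, a value that was positive after recentring or after subtraction of the level trend. The calls and signs of ORC2 and ORC5 were the same in 6 of 7 alternative settings, the exception being where an absolute log2 fold change over 1 was asked.

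The loading factors were called negative together with their inhibitor in PANC1, where 36.5% of all genes at a level of at least 64 were called negative. CDC6, the ATPase that loads the helicase, was at -1.36 ± 0.08 (adjusted p = 1.23e-58 by the Wald test) in the authors' deposited table. CDT1, its partner in loading, was at -0.73 ± 0.18, and GMNN, the geminin gene whose product binds CDT1 and blocks a new round of loading, was at -0.41 ± 0.11 in the authors' deposited table. Both kinase genes that fire licensed origins were negative as well, with CDC7 at -0.84 ± 0.09 and its activator DBF4 at -0.23 ± 0.07 in the authors' deposited table. When the Wald statistic was read with a t distribution, the calls of DBF4 (adjusted p = 0.085) and GMNN (adjusted p = 0.051) were lost.

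Of the genes that turn the loaded ring into an active helicase, 5 of 6 were called negative in PANC1. The share among all genes at a level of at least 64 was 36.5%. GINS2 had the most negative value of all 47 members, -2.07 ± 0.19, a 4.21-fold difference at a low level of 126, in the authors' deposited table. Its partners GINS4 and GINS1 were at -1.53 ± 0.18 and -1.04 ± 0.09, and CDC45, the remaining CMG component, was at -1.11 ± 0.12 in the authors' deposited table. GINS3, which encodes the last subunit of the same tetramer, was called positive at 0.65 ± 0.14 (adjusted p = 1.25e-05 by the Wald test) in the authors' deposited table. For MCM10, a factor needed for the active fork to start, the authors' deposited table gave -0.42 ± 0.09. The log2 fold change of GINS3 stayed between 0.58 and 0.69 in the alternative settings.

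All 9 polymerase genes among the members were called negative in PANC1, against 36.5% of all genes at a level of at least 64. The 4 genes of polymerase alpha-primase, which makes the primers, lay between -0.79 for PRIM2 and -0.59 for PRIM1, with POLA1 at -0.65 ± 0.11 and POLA2 at -0.61 ± 0.09, in the authors' deposited table. POLE, the catalytic subunit of the leading-strand polymerase, was at -0.95 ± 0.06 (adjusted p = 3.20e-52 by the Wald test) and POLE2, its second subunit, at -0.72 ± 0.14 in the authors' deposited table. POLD1, the catalytic subunit of the lagging-strand polymerase, was at -1.01 ± 0.14, with its accessory subunit genes POLD2 at -0.53 ± 0.07 and POLD3 at -0.49 ± 0.08, in the authors' deposited table.

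At the sliding clamp and its loader the sizes were uneven. For PCNA, the clamp, the authors' deposited table gave -0.92 ± 0.07. Small clamp loader subunits were called negative from RFC5 (-0.98 ± 0.10) through RFC4 (-0.65 ± 0.08) and RFC2 (-0.56 ± 0.08) to RFC3 (-0.25 ± 0.10), while the large subunit gene RFC1 was at -0.12 ± 0.07 and not called, in the authors' deposited table. The call of RFC3 was lost after recentring (adjusted p = 0.055 by the Wald test) and with the t distribution (adjusted p = 0.14). For FEN1 and LIG1, the nuclease and ligase that finish Okazaki fragments, the authors' deposited table gave -0.45 ± 0.07 and -0.56 ± 0.10.

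Genes that guard the fork had 4 of 7 called negative in PANC1 (57.1%), against 36.5% of all genes at a level of at least 64. CLSPN, the checkpoint adaptor claspin, was at -1.15 ± 0.08 (adjusted p = 2.28e-45 by the Wald test) and TIMELESS, a fork protection factor, at -1.06 ± 0.08 in the authors' deposited table. TIPIN, whose protein pairs with that of TIMELESS, was at -0.22 ± 0.11 and not called (adjusted p = 0.071 by the Wald test) in the authors' deposited table. WDHD1, which links helicase and polymerase alpha, was at -0.44 ± 0.09 in the authors' deposited table. Of the single-strand binding trimer, RPA3 was called negative at -0.64 ± 0.08, and RPA1 (-0.06 ± 0.08) and RPA2 (0.10 ± 0.07) were not called in the authors' deposited table.

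**Figure D1:**
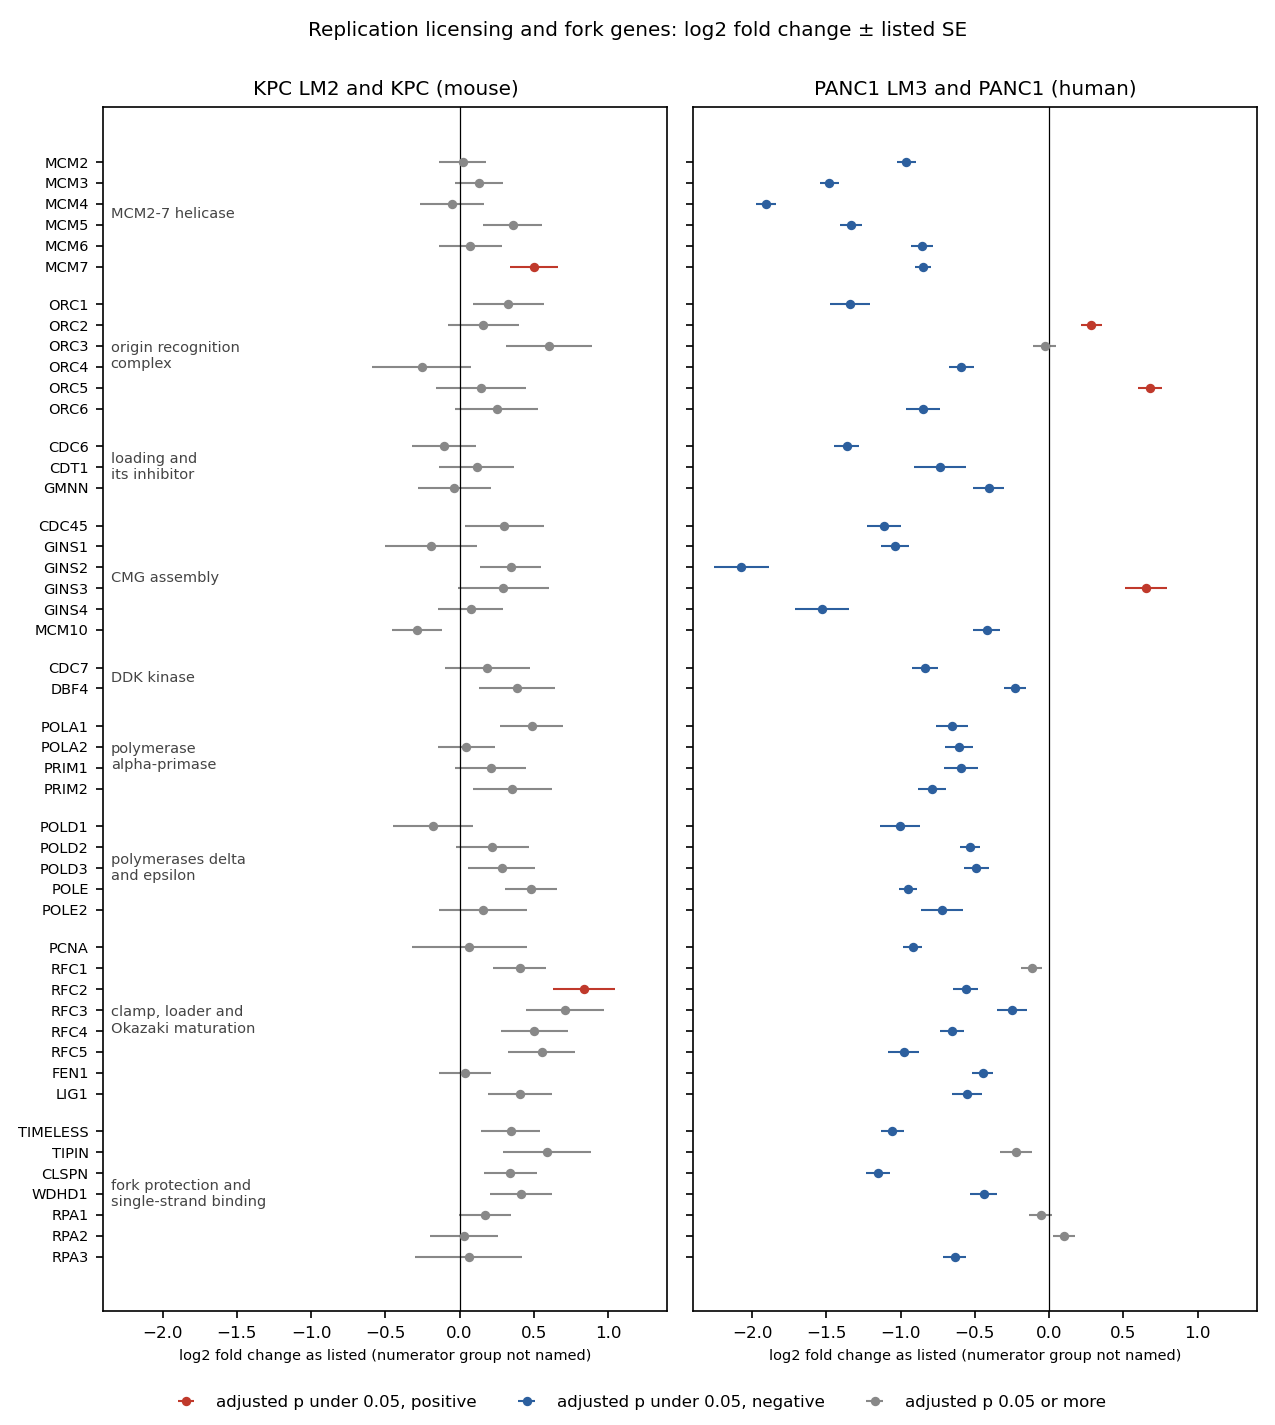
Log2 fold change of the 47 replication genes (x axis, log2 scale as listed, numerator group not named) with the listed SE as bars, by role, in KPC LM2 and KPC tumours (left) and PANC1 LM3 and PANC1 tumours (right). In PANC1, 39 genes are blue (called negative) and ORC2, ORC5 and GINS3 are red (called positive), whereas in KPC only Mcm7 and Rfc2 are red and the rest are grey.

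In KPC LM2 and KPC tumours few of the same genes were called. In the authors' deposited table, 2 of 47 members were called positive and 0 negative, where 5.77% of all 20050 tested genes were called positive and 4.6% negative, 10.4% in all. Among genes at a level of at least 64 the shares were 10.6% and 2.11%. Without adjustment, 11 of 47 members (23.4%) had a Wald p under 0.05, all with positive values, from the authors' deposited table. The share of all tested genes was 27.8%, in either direction and at any level. A share of positive values alone was not computed. Rfc2, the clamp loader subunit gene, was at 0.84 ± 0.21 (adjusted p = 0.00194 by the Wald test) and the helicase gene Mcm7 at 0.50 ± 0.16 (0.0242) in the authors' deposited table. Next in the order were Pole at 0.48 ± 0.18 (adjusted p = 0.057 by the Wald test) and Rfc3 at 0.71 ± 0.26 (0.059) in the authors' deposited table.

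Most KPC values were positive, as they were for well-expressed genes of the table at large. In the authors' deposited table, 40 of 47 members were positive with a median of 0.22. At a level of at least 64, 7175 of the 9767 tested genes were positive, and the median of those 9767 was 0.22 as well. With that shift removed the members' median was 0.00, the call of Mcm7 was lost (0.28 ± 0.16, adjusted p = 0.23 by the Wald test) and Rfc2 was at 0.62 (adjusted p = 0.033). Mcm10, the fork initiation factor, was then called negative at -0.51 (adjusted p = 0.033 by the Wald test), against -0.29 ± 0.17 and no call in the authors' deposited table. When the trend of the fold change over expression level was subtracted, 0 members were called positive and Mcm10 alone negative. When a t distribution (4 degrees of freedom) replaced the normal one for the Wald statistic, 0 of all KPC genes were called, and 2132 of all genes and 2 members had an unadjusted p under 0.05.

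By role, all 5 clamp loader genes had positive values in KPC, as had 7175 of the 9767 tested genes at a level of at least 64. In the authors' deposited table Rfc1 was at 0.40 ± 0.18, Rfc4 at 0.50 ± 0.23 and Rfc5 at 0.55 ± 0.23, with Rfc2 highest. After recentring the clamp loader values ran from 0.18 for Rfc1 to 0.62 for Rfc2, and Rfc2 alone was called. The call of Rfc2 was lost after subtraction of the level trend. Helicase genes other than Mcm7 lay between -0.05 ± 0.22 for Mcm4 and 0.36 ± 0.20 for Mcm5 in the authors' deposited table. Origin recognition genes ran from -0.26 ± 0.34 for Orc4 to 0.60 ± 0.29 for Orc3, and loading genes from -0.11 ± 0.21 for Cdc6 to 0.12 ± 0.25 for Cdt1, none of them called, in the authors' deposited table.

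**Figure D2:**
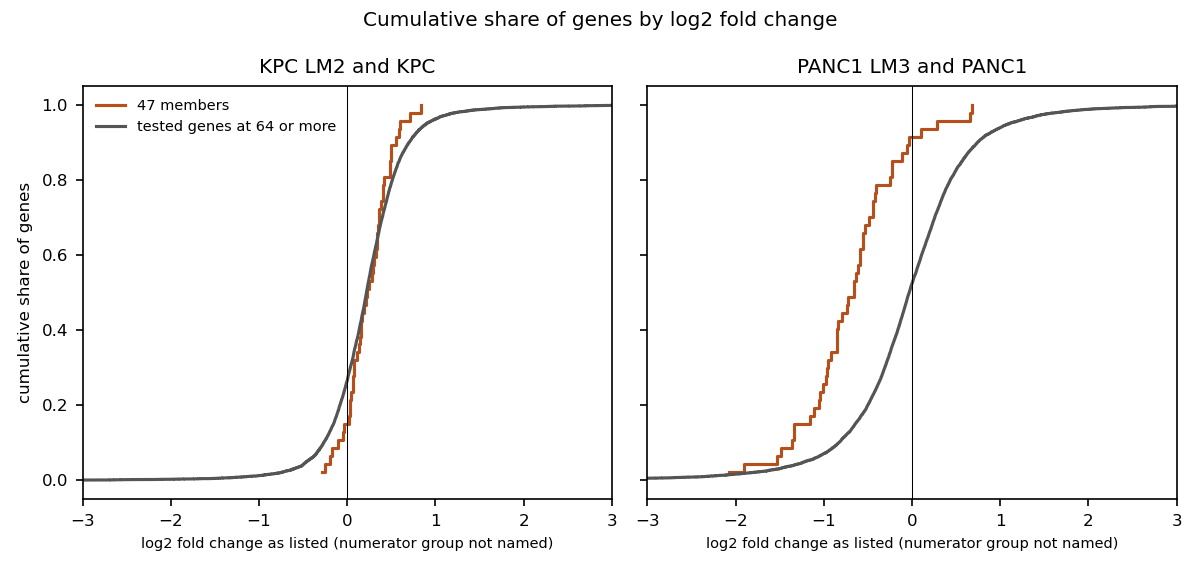
Cumulative share of genes (y axis) by log2 fold change as listed (x axis) for the 47 replication genes and for all tested genes at a level of 64 or above, in KPC LM2 and KPC tumours (left) and PANC1 LM3 and PANC1 tumours (right). The curves share a median of 0.22 in KPC, and in PANC1 the members are shifted to a median of -0.65 against -0.03.

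Precision differed between the tables. The median listed SE of the members was 0.23 in KPC and 0.08 in PANC1, from the authors' deposited table of each model. A KPC gene that was not called is therefore not shown to be equal between the groups. The 95% interval of the KPC log2 fold change (normal approximation on the listed SE) ran from -0.29 to 0.33 for Mcm2, from -0.18 to 0.44 for Mcm3 and from -0.48 to 0.37 for Mcm4. For 22 of 47 members, these 3 among them, the PANC1 log2 fold change was larger in size than both limits of the KPC interval. The PANC1 value was taken as a point here, without its SE. The same count was not made over all matched genes, so 22 of 47 is not shown to be unusual. With the SE of both models counted, 16 members differed under both readings of the signs.

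Differences between the models were tested gene by gene, with no sample shared between them. Read with the signs as listed, 36 of 47 members differed at an adjusted p under 0.05 (two-sided normal test over 12777 symbols found in both tables), against 34.9% of all matched genes. Since the numerators are not named, the test was repeated with the sign of one table turned round, and 20 of 47 differed, against 30% of matched genes. Under both readings 16 of 47 differed, against 13.4%. These background shares take in matched genes at any level, and shares at the members' levels were not computed. The count of 36 was lower after recentring or trend subtraction. The count of 16 was not computed under those settings or with a t distribution. The 16 members were MCM2, MCM3, MCM4, MCM5, MCM6, ORC1, CDC6, CDC45, GINS1, GINS2, GINS4, POLA2, POLD1, POLE, TIMELESS and CLSPN. For MCM4 the KPC value minus the PANC1 value was 1.85 ± 0.23, and for GINS2 it was 2.42 ± 0.28. Across the 47 members the log2 fold changes of the models had a Pearson r of 0.14 and a Spearman rho of 0.15, given as a description over genes that share their libraries.

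**Figure D3:**
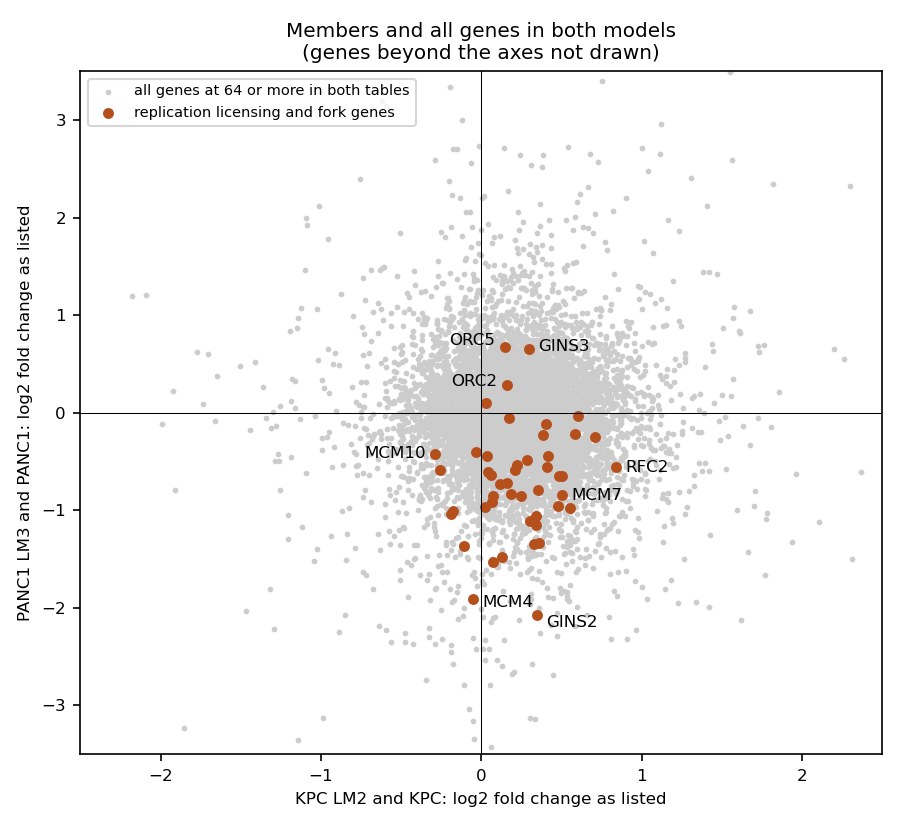
Log2 fold change as listed in KPC LM2 and KPC tumours (x axis) and in PANC1 LM3 and PANC1 tumours (y axis), for the 47 replication genes and for all genes at a level of 64 or above in both tables. Members spread downward along the PANC1 axis to -2.07 for GINS2 and stay within 1 of 0 along the KPC axis.

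Other genes of the replication programme were read as lists, by counts only. Of 24 further origin firing and fork genes tested in PANC1, 16 were called negative (66.7%) and 4 positive in the authors' deposited table. Among all PANC1 genes at a level of at least 64, 36.5% were called negative and 32.7% positive, the background for each list here. PCLAF, a PCNA-binding factor, was at -2.18 ± 0.10, TOPBP1, which helps to fire origins, at -0.89 ± 0.06 and the helicase gene RECQL4 at -1.34 ± 0.10 in the authors' deposited table. Positive calls included POLE3 and POLE4, the histone-fold subunits of polymerase epsilon, at 0.32 ± 0.07 and 0.51 ± 0.11 in the authors' deposited table. All 10 deoxynucleotide supply genes were tested in PANC1 and 8 were called negative, 0 positive, with RRM2 of ribonucleotide reductase at -1.56 ± 0.06 and the thymidine kinase gene TK1 at -1.19 ± 0.10, in the authors' deposited table. Replication-coupled chromatin assembly genes had 9 of 10 called negative and 1 positive, with the remodeller HELLS at -2.12 ± 0.08 and the maintenance methyltransferase DNMT1 at -0.81 ± 0.06 in the authors' deposited table.

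Upstream regulators were mixed in PANC1. Of 19 E2F, RB and DREAM genes 10 were called negative (52.6%) and 3 positive (15.8%) in the authors' deposited table. Of all PANC1 genes at a level of at least 64, 36.5% were called negative and 32.7% positive. MYBL2 was at -2.23 ± 0.11, E2F1, an activator of S phase genes, at -1.63 ± 0.10 and its dimer partner TFDP1 at -0.88 ± 0.08, while the repressor gene E2F4 was at 0.70 ± 0.07, in the authors' deposited table. S phase cyclin, CDK and degradation genes had 10 of 13 negative and 3 positive, with CCNF at -1.28 ± 0.09 and CCNA2 at -0.89 ± 0.09 against SKP2 at 0.33 ± 0.10, in the authors' deposited table. Replication checkpoint genes had 6 of 12 negative (50%) and 0 positive. CHEK1, the checkpoint kinase that protects forks, was at -0.30 ± 0.07 in the authors' deposited table. All 10 proliferation markers outside replication were called negative, with CCNB1 at -1.71 ± 0.06 and MKI67 at -1.63 ± 0.07 in the authors' deposited table. Medians of the log2 fold change were -0.53 for the further fork genes, -0.95 for deoxynucleotide supply, -0.86 for chromatin assembly, -0.17 for the E2F list, -0.56 for cyclins and degradation, -0.23 for the checkpoint and -0.88 for proliferation, against -0.03 for all genes at a level of at least 64, from the authors' deposited table.

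The same lists in KPC held 97 tested genes, of which 4 were called positive and 1 negative (5.15%), a share below the 10.4% of all tested genes, with list medians from -0.03 to 0.34, against 0.22 for all genes at a level of at least 64, from the authors' deposited table. The called genes were Lrwd1, a partner of the origin recognition complex, at 0.74 ± 0.21, E2f5 at 0.74 ± 0.23, Dnmt1 at 0.54 ± 0.16 and Mki67 at 0.59 ± 0.20 on the positive side and Mybl2 at -0.60 ± 0.20 on the negative side, in the authors' deposited table. Mybl2 was the only gene of these lists or members called negative in KPC, so no other could be called negative in both models. It was called negative in PANC1 as well, in the authors' deposited table. Since the numerators are not named, the shared sign does not show the same side of the comparison in both models.

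**Figure D4:**
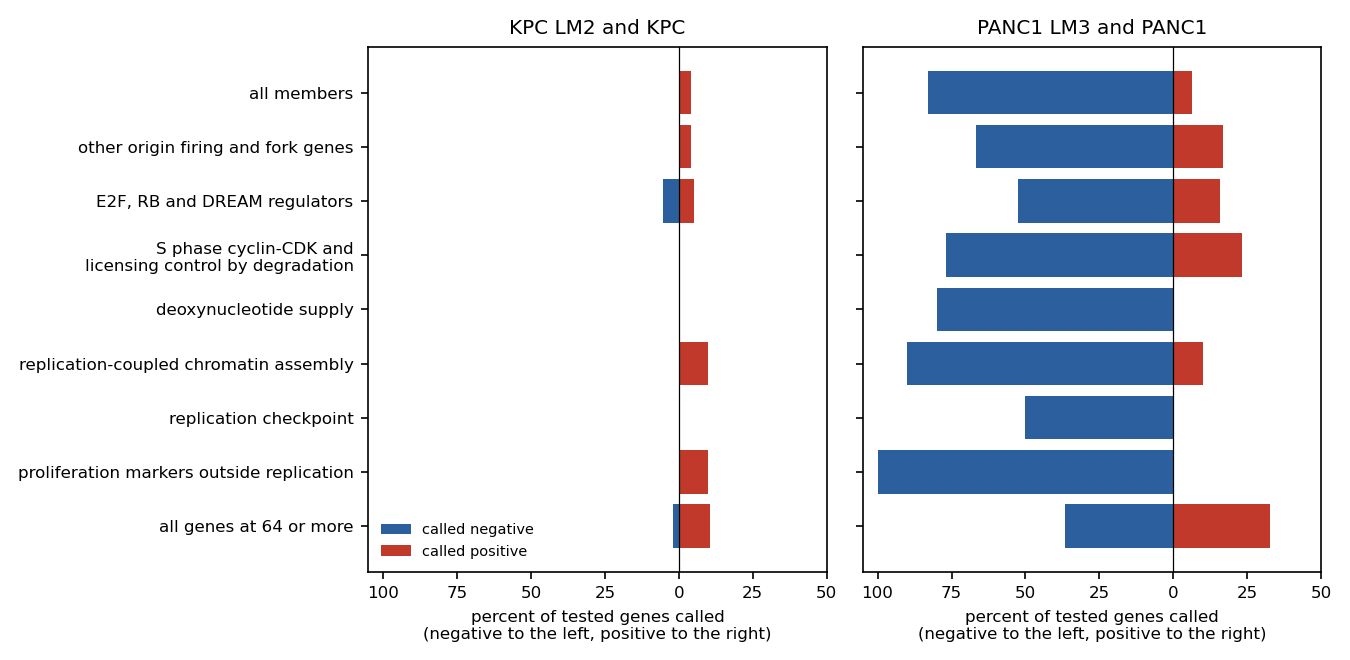
Percent of tested genes called negative (bars to the left) and positive (bars to the right) at an adjusted p under 0.05, for the 47 members, 7 related lists and all tested genes at a level of 64 or above, in KPC LM2 and KPC tumours (left) and PANC1 LM3 and PANC1 tumours (right). In PANC1 the negative bar is longest for the proliferation markers (10 of 10 genes), and in KPC no related list has more than 1 call in a direction.

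Markers of tissue type were called on both sides in PANC1, and their part in the result for the members was not tested. Of 8 ductal and epithelial markers tested in PANC1, 5 were called negative and 2 positive in the authors' deposited table. The shares among all genes at a level of at least 64 were 36.5% and 32.7%. The keratin gene KRT8 was at -4.35 ± 0.06, and the positive calls were EPCAM at 0.97 ± 0.10 and SOX9 at 0.70 ± 0.07. The sum of these markers in each group could not be had, since levels are listed only as means over the libraries of both groups. In KPC 1 of 9 was called positive and 1 negative, and Krt8 and Krt18, keratins of simple epithelia, were listed at levels of 10742 and 28157 by the authors' deposited table. Host markers were low in KPC, with medians of the tested genes between 8.48 for hepatocyte and 17.8 for fibroblast markers, and members had 143 or more, in the authors' deposited table. The leukocyte marker Adgre1 (-2.88 ± 0.75) and the collagen gene Col1a1 (-1.84 ± 0.63) were the host markers called in KPC, both negative, in the authors' deposited table. In PANC1 the values listed are of human genes. Whether reads from a host of another species were counted on them is not known, since the settings are not given. The highest of the leukocyte, hepatocyte, fibroblast and endothelial markers was CD68, at 1103 and a log2 fold change of 1.91 ± 0.07. Tumour cells may also express CD68. The other markers of these cell types had 172.5 or less in the authors' deposited table. The leukocyte marker ITGAM (-0.92 ± 0.34, level 28.5) and the endothelial marker CDH5 (-4.09 ± 0.95, level 9.89) were called negative in PANC1, the sign of most members, in the authors' deposited table.

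Levels can be set side by side between mouse genes once divided by length. Using exonic lengths of GENCODE M21 on GRCm38, a build other than the submitters' mm39, the 6 helicase genes had 321 to 791 mean normalised counts per kb, with Mcm4 the highest of all 47 members. The median was 151 per kb over the members and 85.7 per kb over 9579 genes at 64 or more. Lowest was Cdc7 at 45.1 per kb, with Orc5 at 49.8 per kb beside it. Exons of 18 members overlap those of another gene in that annotation, which makes their counts uncertain, since the use of strand in counting is not given in the sources used here. The overlap covers 84.2% of the exonic length of Fen1 and 67.3% of that of Gins2, and among the genes called in KPC 12.6% of Mcm7 and 15.1% of Rfc2. Pcna has annotated pseudogenes that carry its name, with which its reads may be shared. Pseudogenes of the members under other names were not analysed. Overlaps of the human genes were not analysed here.

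Returning to the promoter sequences, RefSeq's table for GRCm38.p6 held 38 of the 47 mouse members, each from 250 bases before to 50 after its start. The E2F-like letters were in a promoter of 25 of these 38 genes (65.8%), against 10.9% of 27025 genes in the whole table and 21.4% of 7850 genes tested in KPC at 64 or more. In 16 of the 38 a match lay wholly before the start. The CCAAT letters were in 57.9% of the members, against 41.1% of all genes and 43.4% of the genes tested in KPC at 64 or more. The letters TTTGAA of the CHR element were in 18.4% of the members, 7 of 38, against 20.2% of all genes and 14.5% of those tested in KPC. KPC log2 fold changes had a median of 0.28 over the 25 members with E2F-like letters and 0.17 over the 13 without, and ranged from -0.26 to 0.71 and from -0.29 to 0.55. These matches are of letters only, and the human promoters behind the PANC1 values were not analysed here.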

How the data were processed

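Per the labels' protocols, libraries of 12 tumour samples were made with a TruSeq kit. Per the submitters' processing notes, DESeq2 1.24, featureCounts 2.0.0, STAR 2.7.6a and MultiQC 1.9 were used with builds hg19 and mm39; settings, annotation and model design are not given in the sources used here.

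The authors deposited 1 comparison table per model. The authors' deposited mean normalised count (a signal, here called level) was read as counts over size factors, averaged over libraries. Log2 fold changes and their SE are on the log2 scale, the Wald statistic is a score that equals their quotient, and the deposited p-values are raw and Benjamini-Hochberg adjusted. The authors also deposited a signed −log10 score, which was not used. The planned count test needs values per library and was not run, so calls are the authors' at an adjusted p under 0.05.

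The 47 members, 9 roles, 7 related lists and marker lists were chosen with earlier results of these data known. Every member may be named; the 8 called members per model and sign with the smallest adjusted p were given in full, and up to 3 called genes per related list, model and sign. Models were matched by symbol in capitals, and the difference of fold changes was divided by the root of the summed squared SE.

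Alternatives were a threshold of 0.01, a log2 fold change beyond 1 in size, Benjamini-Hochberg adjustment of every listed p, genes at levels of 64 or above alone, recentring on these, a running median over 501 genes subtracted, a t distribution with 4 degrees of freedom, and a turned sign. Steps were tested on simulated data. Software was scipy 1.17.1, pandas 2.3.3, numpy 2.4.6 and matplotlib 3.10.9 under Python 3.11.15.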

Additional observations from a re-analysis of the deposited data

Results flagged for a closer look

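A difference between the 2 models under the same kind of comparison was seen for 16 of 47 members, whichever way the signs of the tables are read. Among the members given in full, the KPC log2 fold change minus the PANC1 one was 0.99 for MCM2, 1.61 for MCM3, 1.85 for MCM4 and 1.69 for MCM5. For the loading factor CDC6 it was 1.26, for the polymerase gene POLE 1.43 and for claspin, CLSPN, 1.49. The test was a two-sided normal test on the listed SE with adjustment over 12777 matched genes, of which 13.4% passed under both readings. With the signs as listed the adjusted p of POLE was 9.03e-13, and with a sign turned it was 0.041. Single outlying samples were not looked for, since the tables used hold no values per library.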

How the results depend on the processing

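In PANC1 the 39 negative and 3 positive member calls went to 12 and 0 when an absolute log2 fold change over 1 was asked, and all genes called from 9361 to 2759; in the 6 other settings, t distribution included, 36 to 39 were negative and 3 positive, the t distribution losing RFC3, DBF4 and GMNN. In KPC the 2 positive member calls became 1 at an adjusted p of 0.01 (889 genes called in all, against 2079), 0 at an absolute log2 fold change over 1 (1303), and 4 with genes at 64 or more (1345). They became 1 after recentring, 0 after the level trend was subtracted (1133) and 0 with the t distribution (0 of all genes, by a Wald statistic read with 4 degrees of freedom, against 2132 with an unadjusted p under 0.05). The 0 negative KPC member calls became 1 after recentring and 1 after subtraction of the trend, Mcm10 in both. Recentring moved KPC by 0.22 and the positive share of all its calls from 55.7% to 23.5%. The members' KPC median was -0.0071 after subtraction of the trend. Members that differ between models numbered 36 with signs as listed, 20 with a sign turned, and 25 after recentring or trend subtraction. KPC values not called turned sign after recentring for Rpa1 (-0.048), Prim1 (-0.0087), Mcm3 (-0.088), Orc2 (-0.060), Cdc7 (-0.033), Pole2 (-0.060), Orc5 (-0.073), Cdt1 (-0.10), Mcm6 (-0.15), Gins4 (-0.14), Pola2 (-0.18), Fen1 (-0.18), Rpa3 (-0.16), Pcna (-0.15), Mcm2 (-0.20), Rpa2 (-0.19). After subtraction of the trend they did for Rpa1 (-0.053), Pold2 (-0.0071), Prim1 (-0.025), Mcm3 (-0.13), Orc2 (-0.080), Cdc7 (-0.020), Pole2 (-0.040), Orc5 (-0.075), Cdt1 (-0.081), Mcm6 (-0.18), Gins4 (-0.17), Pola2 (-0.18), Fen1 (-0.20), Rpa3 (-0.15), Pcna (-0.16), Mcm2 (-0.22), Rpa2 (-0.22). In PANC1, ORC3 turned to 0.0022 after recentring and to 0.024 after subtraction of the trend, where RPA1 turned to 0.00046. The causes were not tested. No paired analysis was possible because the tables hold no value per library, and leaving out replicates was not run for the same reason; depth per library is unknown.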
